A study of Mus musculus with 15 samples.

Results

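The genes described here are 34 genes of glucose breakdown and of the response to low oxygen, out of 43432 genes counted in 15 mouse cell lines. They were taken by symbol alone from a list that was drawn up with earlier results of these data known: 13 glycolytic enzymes, 20 other genes known to be induced by hypoxia, and Hif1a. The lines are of CD1 genotype and are described as induced extraembryonic endoderm stem (iXEN) cells, cultured counterparts of the primitive endoderm, obtained while mouse embryonic fibroblasts (MEFs) were being reprogrammed. The retroviral OSKM group has 5 lines made with retroviral Oct4, Sox2, Klf4 and Myc, each grown as a clone from 1 Oct4-EGFP-positive cell. The lentiviral OSKM group has 5 lines made with the same 4 factors in lentivirus, and the lentiviral SKM group has 5 lines made with lentiviral Sox2, Klf4 and Myc and no Oct4. All groups therefore share 3 factors, and every line was sequenced once. The lentiviral lines were beyond passage 11 and started from separate MEF preparations, whereas passage and preparation are not given for the clones. Tests that involve the clones therefore measure the spread between clones. The sample labels are not uniform: lentiviral titles begin with IPS, 9 of the 10 lentiviral lines are called induced pluripotent, and the treatment field of the other lentiviral line and of the clones speaks of embryonic stem cells. The origin used here is that of the series description.

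Glycolysis splits glucose into pyruvate, and lactate dehydrogenase turns pyruvate into lactate, so that the pathway can run without oxygen. When oxygen is present, prolyl hydroxylases of the Egln family mark the protein HIF-1α, product of Hif1a, for destruction. When oxygen falls, HIF-1α accumulates, pairs with Arnt and binds the core motifs ACGTG and GCGTG near its targets, which include most glycolytic enzymes, glucose carriers, Vegfa and Bnip3. Because HIF-1α is mainly controlled as a protein, the level of Hif1a RNA need not follow its activity.

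The promoter windows of 5 genes are printed because they show how the motif content differs among genes that are central to the values below. Each window runs from 250 bases before to 50 bases after a transcription start and was taken from RefSeq (GRCm38.p6), 5′ to 3′ on the gene's strand. Capitals mark ACGTG or GCGTG on either strand, and a CACGTG, which is also a binding sequence of Myc, counts as ACGTG once on each strand. The glycolytic enzyme gene Pgk1 (chrX:106186850-106187149, plus strand) had 2 ACGTG and 0 GCGTG. Ldha, which encodes lactate dehydrogenase A (chr7:46845554-46845853, plus strand), had 5 and 2, more than any other member in sum. The mitophagy gene Bnip3 (chr7:138909457-138909756, minus strand) had 2 and 3, and the ankyrin repeat gene Ankrd37 (chr8:45999801-46000100, minus strand) had 2 and 2. Vegfa, which encodes vascular endothelial growth factor A (chr17:46032328-46032627, minus strand), had 0 of either in this window, which says only that these letters do not occur within it.
Pgk1: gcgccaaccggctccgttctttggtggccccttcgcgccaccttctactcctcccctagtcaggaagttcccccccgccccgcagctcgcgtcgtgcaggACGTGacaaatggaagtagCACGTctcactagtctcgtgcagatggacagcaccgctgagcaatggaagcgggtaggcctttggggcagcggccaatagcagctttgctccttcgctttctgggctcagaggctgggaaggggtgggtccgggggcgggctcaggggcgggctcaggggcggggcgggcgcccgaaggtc
Ldha: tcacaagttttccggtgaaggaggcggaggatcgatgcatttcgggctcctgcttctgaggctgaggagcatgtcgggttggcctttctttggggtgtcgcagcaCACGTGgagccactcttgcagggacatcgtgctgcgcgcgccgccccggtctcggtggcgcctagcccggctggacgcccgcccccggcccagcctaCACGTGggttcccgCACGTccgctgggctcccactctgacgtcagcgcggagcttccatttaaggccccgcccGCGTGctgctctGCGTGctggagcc
Bnip3: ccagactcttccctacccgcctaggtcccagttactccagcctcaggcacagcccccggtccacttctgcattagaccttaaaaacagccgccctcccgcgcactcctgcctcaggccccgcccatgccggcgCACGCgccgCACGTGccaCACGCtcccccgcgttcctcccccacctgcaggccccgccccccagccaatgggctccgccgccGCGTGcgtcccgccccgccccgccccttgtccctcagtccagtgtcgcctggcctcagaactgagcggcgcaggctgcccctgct
Ankrd37: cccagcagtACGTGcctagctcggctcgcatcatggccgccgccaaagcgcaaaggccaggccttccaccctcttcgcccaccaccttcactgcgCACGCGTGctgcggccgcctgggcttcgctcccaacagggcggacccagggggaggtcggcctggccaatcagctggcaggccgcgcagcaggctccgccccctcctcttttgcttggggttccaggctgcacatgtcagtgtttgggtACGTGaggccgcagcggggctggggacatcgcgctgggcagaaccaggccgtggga
Vegfa: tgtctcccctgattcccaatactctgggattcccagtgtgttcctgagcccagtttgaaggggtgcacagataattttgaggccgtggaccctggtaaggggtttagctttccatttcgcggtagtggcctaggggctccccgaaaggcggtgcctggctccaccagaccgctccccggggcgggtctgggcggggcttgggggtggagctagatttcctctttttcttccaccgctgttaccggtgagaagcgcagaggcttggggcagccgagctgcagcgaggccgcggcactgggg

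A window was found for 31 of the 34 genes, and the first listed was used where a gene had several; Ndrg1, Bnip3l and Slc2a3 had none. ACGTG occurred in 18 of the 31 windows (58.1%), against 19.7% of the first windows of 27025 genes. GCGTG also occurred in 18 (58.1%), against 32.5% of all genes. At least 1 of the motifs occurred in 25 (80.6%), against 43.8% of all genes. By class, 9 of 13 enzyme windows and 16 of the 18 other windows held one. The windows were also richer in G and C, with a median of 65% against 52.7% for all genes, and the part of base composition in these shares was not tested. The list was made of known hypoxia genes, many of them HIF targets. A higher share of HIF motifs is therefore no independent finding and describes the list only.

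Expression of the genes was general and high. The median over the 15 lines exceeded 1 CPM (counts scaled to library size by TMM) for 33 of the 34 genes and 100 CPM for 23, and 31 genes exceeded 1 CPM in every line. Per kilobase of exon, the highest median levels belonged to Pkm, which encodes the pyruvate kinase that ends glycolysis, and to the neuronal-type glucose carrier Slc2a3, both at 666 CPM per kb. Ldha followed at 491, Pgk1 at 481, the aldolase gene Aldoa at 446 and the triosephosphate isomerase gene Tpi1 at 395 CPM per kb. These neighbours in the order overlapped widely across lines, with Ldha at 293 to 1162 and Pgk1 at 305 to 1247 CPM per kb. The collagen prolyl hydroxylase genes P4ha1 and P4ha2 came next, at 346 and 232 CPM per kb. The general glucose carrier Slc2a1, with a median of 67.6 CPM per kb and a highest line of 131, lay below the lowest line of Slc2a3 (421). The isozymes Aldoc (2.28) and Pfkp (1.39), the peptide hormone gene Adm (1.81) and the switch Pfkfb4 (1.35) were at the low end in CPM per kb.

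The groups overlapped for the oxygen sensing genes. Hif1a averaged 142 ± 47.2 CPM (SD, n = 5) across the retroviral OSKM lines, 159 ± 39.7 across the lentiviral OSKM lines and 143 ± 23.1 across the SKM lines. Egln1, the main oxygen-dependent hydroxylase, averaged 209 ± 75.1, 170 ± 49.1 and 170 ± 65.0 CPM in the same order. Egln3, a hydroxylase gene that is itself a HIF target, ranged over all lines from 51.8 to 380 CPM, with the highest value in lentiviral SKM replicate 5. Car9, a carbonic anhydrase gene often used as a marker of hypoxia, did not exceed 0.568 CPM in any line and was at 0 in retroviral OSKM replicate 4, where 3 counts would equal at most 0.0851 CPM.

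**Figure D1:**
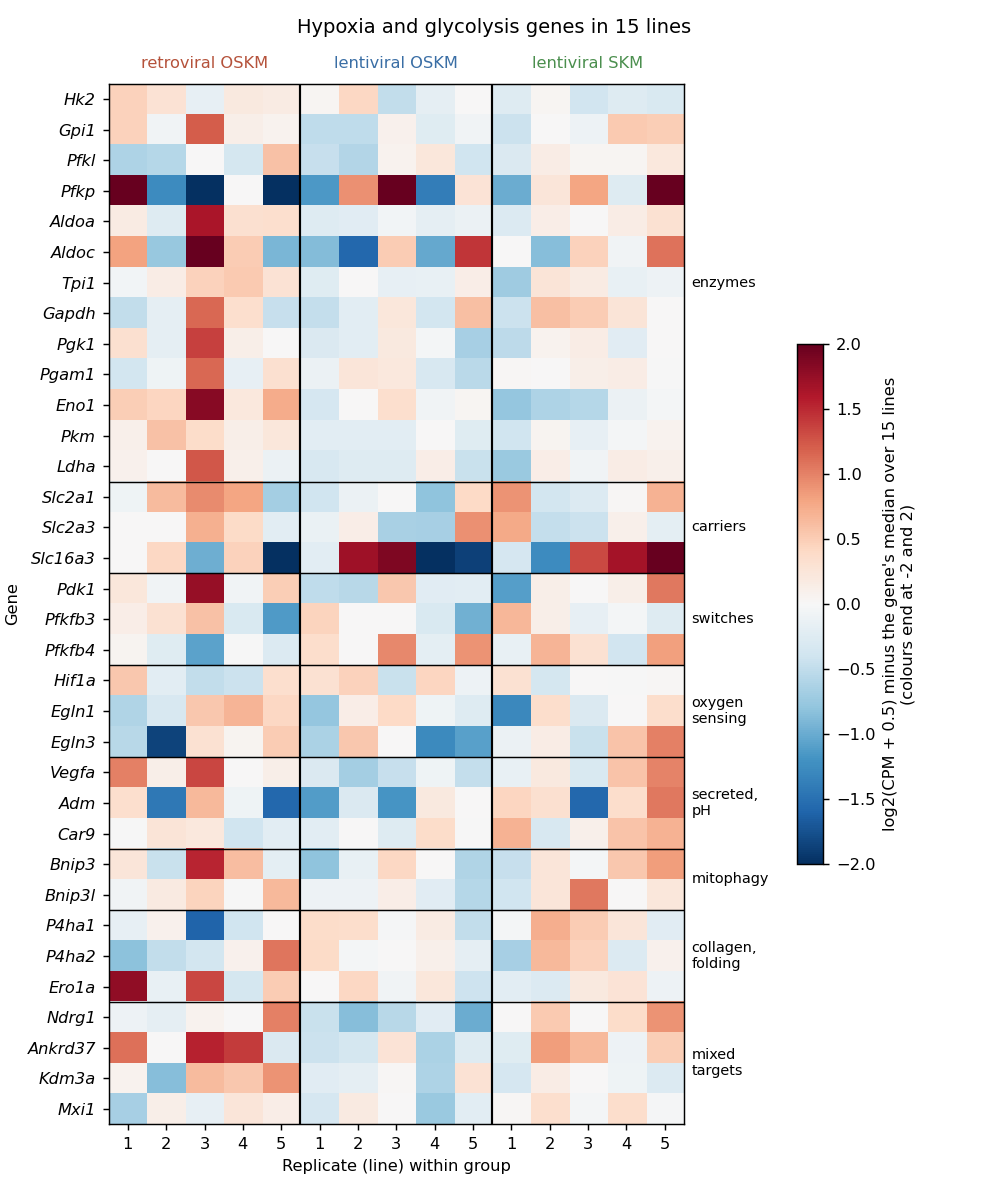
Level of each of the 34 genes (rows, by role) in each of the 15 lines (columns, by group and replicate), as log2(CPM + 0.5) centred on that gene's median across lines; colours end at -2 and 2. Retroviral OSKM replicate 3 is red for most enzymes. It is blue for the enzyme gene Pfkp and for P4ha1, Pfkfb4 and the lactate carrier gene Slc16a3, among others. The widest spread between lines is that of Pfkp and Slc16a3.

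The first comparison sets the lentiviral SKM lines against the lentiviral OSKM lines and asks how lines made without Oct4 differ. Ndrg1, a stress-response gene induced by hypoxia, was on average at 138 ± 29.4 CPM (SD, n = 5) with Oct4 and 275 ± 75.0 CPM without it, and was the single gene of the 34 whose groups did not overlap. The fitted log2 fold change (lentiviral SKM over lentiviral OSKM) was above 0 for 28 of the 34 genes, but the enzymes lay close to 0, with a median of 0.13, and the other targets at a median of 0.38. No gene of the 34 passed the test, the quasi-likelihood test of edgeR, adjusted by Benjamini-Hochberg over 15899 genes. It called 0% of all genes.

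Ndrg1 was at 152, 114, 142, 177 and 104 CPM in the lentiviral OSKM lines 1 to 5. In the lentiviral SKM lines 1 to 5 it was at 208, 298, 210, 267 and 390 CPM. Every SKM line lay above every lentiviral OSKM line. Such a separation in this direction occurred for 0.377% of the genes tested, and in either direction for 0.717%. The log2 fold change was 0.996 (SE 0.21, 95% interval 0.53 to 1.46), with an unadjusted p of 0.00061 and an adjusted p of 0.758 by edgeR, and DESeq2 called it (adjusted p = 0.0105). Ndrg1 lies at chr15:66929318-66969640 on the minus strand (GRCm38). About 8.43% of its exon bases overlap genes on the opposite strand, and the sources used here do not say whether counting used the strand.

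Vegfa, which stimulates vessel growth, was at 209, 158, 185, 239 and 183 CPM in the lentiviral OSKM lines 1 to 5 and at 229, 291, 207, 378 and 505 CPM in the lentiviral SKM lines 1 to 5. The groups overlapped through SKM replicates 1 and 3, and replicates 2, 4 and 5 were above all lentiviral OSKM lines. The log2 fold change was 0.73 (SE 0.24, unadjusted p = 0.0117, adjusted p = 0.979 by edgeR). Ankrd37, whose 26.4% of exon bases shared with opposite-strand genes makes its level uncertain, had a log2 fold change of 0.70 (SE 0.32, unadjusted p = 0.04996, adjusted p = 0.979 by edgeR). At an unadjusted p under 0.05, 3 of the 34 genes were higher and 0 lower in SKM lines, beside 2.29% and 2.57% of all genes, 4.86% together. limma voom called 0 of the 34, and DESeq2 called 1, beside 0.277% of all genes.

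The secreted, mitophagy and mixed targets all had positive log2 fold changes in this comparison, and 0 of them passed. Those of Adm and Car9 were 0.84 (SE 0.58) and 1.21 (SE 0.73) at levels of at most 5.73 and 0.568 CPM. Bnip3 and Bnip3l, whose products mark mitochondria for removal, had 0.46 (SE 0.28) and 0.46 (SE 0.24); an opposite-strand gene shares 22.3% of the exon bases of Bnip3. The histone demethylase gene Kdm3a and Mxi1, an antagonist of Myc, had 0.015 (SE 0.17) and 0.33 (SE 0.17). Among the switches, the log2 fold change was 0.33 (SE 0.36) for Pdk1, whose kinase keeps pyruvate out of mitochondria, 0.20 (SE 0.26) for Pfkfb3 and −0.16 (SE 0.35) for Pfkfb4, both enzymes that set the main activator of phosphofructokinase. Among the carriers, Slc2a1 had 0.42 (SE 0.29), Slc2a3 −0.016 (SE 0.34) and Slc16a3 0.53 (SE 0.90).

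Of the sensing and matrix genes, Egln3 had a log2 fold change of lentiviral SKM over lentiviral OSKM of 0.66 (SE 0.38, adjusted p = 0.987 by edgeR), and the others had estimates no larger than their SE. Hif1a had −0.16 (SE 0.19) and Egln1 0.0017 (SE 0.31). P4ha1, P4ha2 and the oxidative folding gene Ero1a had 0.18 (SE 0.22), 0.059 (SE 0.23) and −0.06 (SE 0.17).

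Among the 13 enzymes, 11 had a log2 fold change above 0, against 49.8% of all genes, and 0 passed. That count was 8 without lentiviral OSKM replicate 1 or 4, and 9 without replicate 5 of either lentiviral group. Among the 11, Tpi1 (0.0019) and Pfkp (0.017, SE 0.77) were close to 0. The enolase gene Eno1 was at 302, 380, 481, 362 and 392 CPM in the lentiviral OSKM lines 1 to 5 and at 223, 248, 257, 352 and 372 CPM in the lentiviral SKM lines 1 to 5. SKM replicates 1 to 3 were below all lentiviral OSKM lines and the other two overlapped them. Its log2 fold change was −0.40 (SE 0.18, unadjusted p = 0.0504, adjusted p = 0.979 by edgeR), and hexokinase 2 (Hk2) had −0.21 (SE 0.17). The other enzymes ranged from 0.0019 for Tpi1 (SE 0.18) to 0.37 for the glucose phosphate isomerase gene Gpi1 (SE 0.21). The typical gene had a 95% interval reaching 0.634 log2 units to either side. Changes were also simulated in genes drawn at random from all those tested. In 2 runs, 57.1% and 62.5% of 4-fold changes and 16.9% and 26.6% of 2-fold changes were recovered. These shares are not specific to the enzymes, whose SE ran from 0.13 to 0.77.

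**Figure D2:**
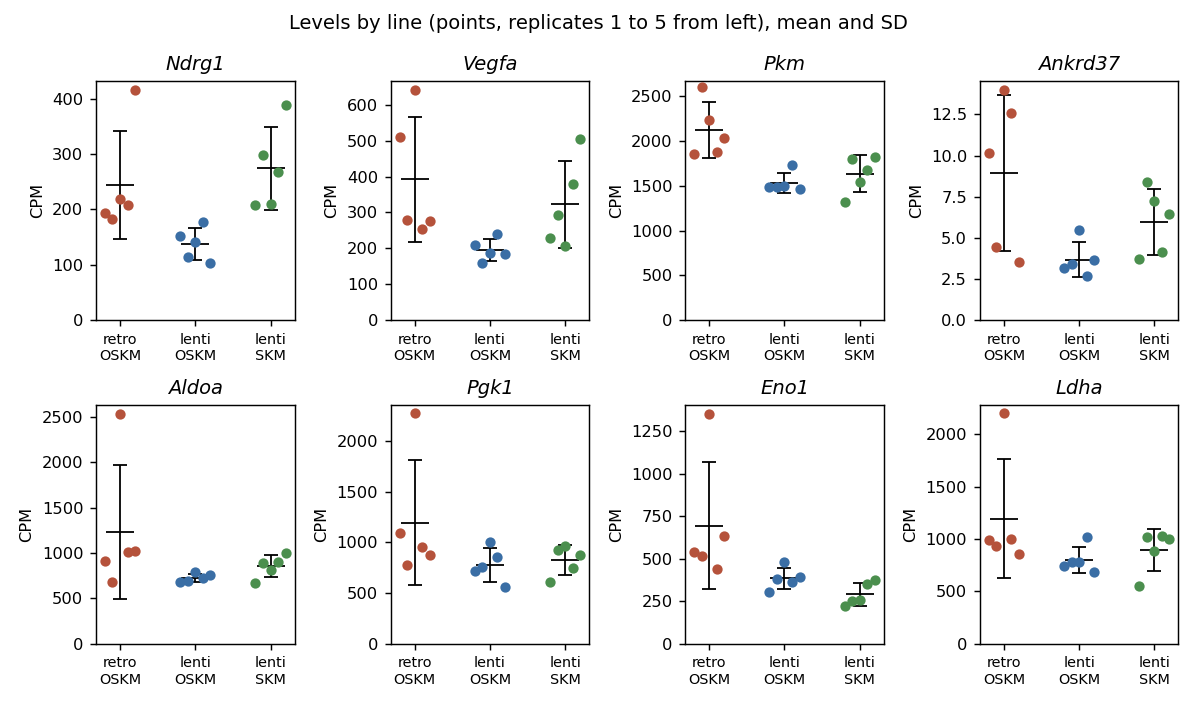
CPM of 8 genes by line (points, replicates 1 to 5 from left in each group) with the group mean and SD (n = 5); each vertical axis starts at 0. Every lentiviral SKM line is above every lentiviral OSKM line for Ndrg1, and for Aldoa, Pgk1, Eno1 and Ldha 1 retroviral OSKM line stands far above the other 4.

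The second comparison, of retroviral with lentiviral OSKM lines, sets the same 4 factors side by side in another vector. Vector, cloning by the Oct4 reporter, library series and depth (34916933 to 46995817 against 64348250 to 73405134 counts in genes) divide the lines in the same way, and their parts cannot be told apart. The log2 fold change (retroviral over lentiviral OSKM) was above 0 for 13 of 13 enzymes, with a median of 0.49, and for 16 of the 19 other targets tested, with a median of 0.31. Over all 15483 genes 52.3% were above 0 and the median was 0.03. Car9 was too low to be tested, and no gene of the other 33 passed, where edgeR's quasi-likelihood test called 0.252% of all genes, 0.11% as higher and 0.142% as lower. These are 39 genes, and 15 to 101 with single lines left out, the most without retroviral replicate 5. At an unadjusted p under 0.05, 9 of the 33 were higher and 0 lower, beside 7.56% and 6.89% of all genes. limma voom called 0 of them, and DESeq2 called 3 (Vegfa, Pkm and Ankrd37), beside 4.02% of all genes. The groups did not overlap for Pkm, Vegfa and Ndrg1, each higher in the retroviral lines, as were 1.77% of all genes, with 2.24% lower and 4.01% in either direction.

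Pkm was at 1857, 2606, 2239, 1873 and 2033 CPM in clones 1 to 5 (retroviral OSKM) and at 1491, 1492, 1493, 1732 and 1459 CPM in the lentiviral OSKM lines 1 to 5. All retroviral lines were above all lentiviral OSKM lines, although the gap between the groups was small. The log2 fold change was 0.49 (SE 0.17, 95% interval 0.13 to 0.86, adjusted p = 0.221 by edgeR, 0.0208 by DESeq2), and 0.47 without retroviral replicate 3. Pkm lies at chr9:59656368-59679375 on the plus strand (GRCm38), and a gene on the same strand shares 15.3% of its exon bases.

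Vegfa was at 510, 278, 642, 255 and 276 CPM in clones 1 to 5 (retroviral OSKM), all above the lentiviral OSKM values given above. Replicates 1 and 3 were well above the other retroviral lines. Its log2 fold change was 1.04 (SE 0.29, 95% interval 0.41 to 1.67, adjusted p = 0.162 by edgeR, 0.0244 by DESeq2), and 0.78 without replicate 3. Ndrg1 was at 193, 183, 219, 208 and 417 CPM in the retroviral replicates, also all above lentiviral OSKM, with replicate 5 far above the others (log2 fold change 0.85, SE 0.25, adjusted p = 0.188 by edgeR).

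Ankrd37 was at 10.2, 4.45, 13.96, 12.6 and 3.55 CPM in clones 1 to 5 (retroviral OSKM) and at 3.19, 3.39, 5.46, 2.68 and 3.66 CPM in the lentiviral OSKM lines 1 to 5. Retroviral replicates 1, 3 and 4 were high and the other two lay within the lentiviral OSKM range. It had the highest log2 fold change of the 33, 1.31 (SE 0.43, adjusted p = 0.215 by edgeR, 0.0492 by DESeq2). The lowest was −0.88 (SE 0.86) for Slc16a3, which exports lactate and ranged from 8.60 to 339.7 CPM over all lines. Pfkfb4 followed with −0.79 (SE 0.37), then P4ha1, which hydroxylates proline in collagen, with −0.39 (SE 0.30), and Hif1a with −0.14 (SE 0.25). The remaining targets lay between these ends. Ero1a had 0.84 (SE 0.40), Pdk1 0.82 (SE 0.38), Bnip3 0.72 (SE 0.38), Slc2a1 0.60 (SE 0.32), Kdm3a 0.51 (SE 0.29) and Bnip3l 0.44 (SE 0.19). Egln1, Adm, Egln3, Slc2a3, Mxi1, Pfkfb3 and P4ha2 ranged from 0.31 down to 0.014. Both comparisons use the lentiviral OSKM lines, so a gene that was low in those lines appears higher in both, and the values stand side by side without being counted as repeats.

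**Figure D3:**
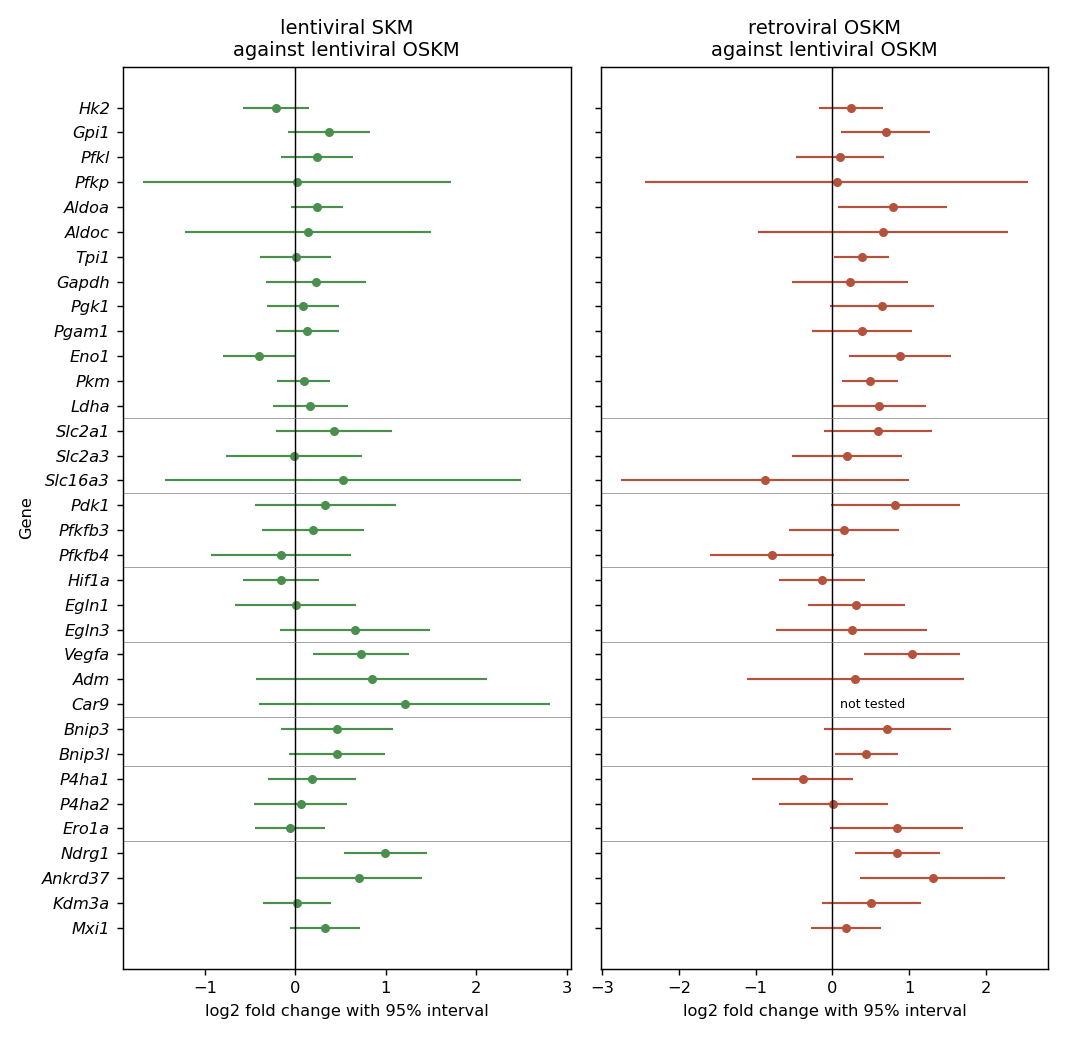
Log2 fold change of each gene with its 95% interval (edgeR quasi-likelihood fit) for lentiviral SKM over lentiviral OSKM (left) and retroviral OSKM over lentiviral OSKM (right); the horizontal scales differ between panels, and both use the same lentiviral OSKM lines. Most points lie right of 0, further for the enzymes in the right panel, where the intervals of Pfkp, Slc16a3 and Aldoc are the widest.

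Of the enzymes, the retroviral log2 fold change was largest for Eno1, at 0.88 (SE 0.31, adjusted p = 0.231 by edgeR), followed by Aldoa at 0.79 (SE 0.32), Gpi1 at 0.69 (SE 0.26), Aldoc at 0.66 (SE 0.74), Pgk1 at 0.65 (SE 0.31) and Ldha at 0.61 (SE 0.28). It was 0.39 (SE 0.16) for Tpi1, 0.38 (SE 0.30) for the phosphoglycerate mutase gene Pgam1, 0.25 (SE 0.19) for Hk2, 0.098 (SE 0.26) for the liver-type phosphofructokinase gene Pfkl and 0.056 (SE 1.14) for Pfkp. Tpi1 and Gpi1 were among the 5 enzymes with an unadjusted p under 0.05, together with Aldoa, Eno1 and Pkm.

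Part of the enzyme difference came from 1 clone. Retroviral OSKM replicate 3 had the highest value of all 15 lines for 8 of 13 enzymes and for 5 other genes, and the lowest for Pfkfb4, Hif1a and P4ha1. Some of these extremes were narrow. Hif1a was at 100 CPM (next line 104), Slc2a1 at 426 CPM (next 411) and Ankrd37 at 13.96 CPM (next 12.6). Aldoa was at 909, 683, 2534, 1016 and 1024 CPM in retroviral replicates 1 to 5, against 678 to 786 CPM across the lentiviral OSKM lines and 671 to 1006 CPM across the SKM lines. Replicate 3 alone was far above the rest. Replicate 2 lay within the lentiviral OSKM range, and replicates 1 and 2 within the SKM range. Ldha was at 988, 931, 2202, 1001 and 859 CPM and Pgk1 at 1095, 779, 2275, 954 and 880 CPM in the same lines. In both, replicate 3 alone exceeded every lentiviral line by a wide margin. Eno1 was at 538, 513, 1348, 440 and 634 CPM, again with replicate 3 highest, and 4 of the 5 clones above the highest lentiviral OSKM line (481 CPM). Pdk1 was at 34.7, 28.1, 101, 28.3 and 42.0 CPM, highest in replicate 3. P4ha1 went the other way, at 1268, 1502, 466.5, 1076 and 1421 CPM, with replicate 3 lowest. Relative to the median of the other 14 lines, replicate 3 was at 3.58 times for Eno1, 3.17 times for Aldoa, 2.63 times for Pgk1, 2.43 times for Ldha and 0.32 times for P4ha1, while Hk2 (0.88 times) and Pfkp (0.13 times) were below that median. The 34 genes took 2.49% of all gene counts in this line and 1.18% to 1.52% in the other 14.

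Without replicate 3 the median log2 fold change of the enzymes was 0.32 in place of 0.49, with 11 of 13 above 0, and that of the other targets 0.21 in place of 0.31, with 14 of 20 above 0. With single lines left out the target median ranged from 0.21 to 0.46, and without retroviral replicate 2 it was 0.45 against 0.43 for the enzymes, so the order of these medians turned. Without retroviral replicate 3, Aldoa had 0.34 in place of 0.79, Pgk1 0.27 in place of 0.65, Ldha 0.26 in place of 0.61 and Pdk1 0.32 in place of 0.82. The aldolase isozyme gene Aldoc and Gapdh then had −0.01 and −0.16 in place of 0.66 and 0.23. Tpi1 changed less, to 0.33 from 0.39, and Hk2 and Pfkp rose, to 0.32 from 0.25 and to 0.35 from 0.056. Other measures of retroviral replicate 3 also stood apart. The 10 XEN markers summed to 12016 CPM there and to at least 32049 CPM elsewhere, and Foxa2, an endoderm transcription factor among them, was at 2.56 CPM. These sums rest largely on Lama1, Lamb1 and Sparc, with medians over the lines of 12401, 10741 and 12805.5 CPM. The other markers had medians of at most 1045 CPM. This clone was the lowest line for each of the markers except Sox17. Of the 8 endothelial markers, 6 were above 1 CPM in this clone, as in retroviral replicate 4 and in some lines of both lentiviral groups. In this clone 0 of them were at 0, as in retroviral replicate 5. All 8 summed to 639 CPM, above the other retroviral lines (324 to 424 CPM) and lentiviral OSKM lines (229 to 608 CPM) but inside the range of the SKM lines (403 to 730 CPM). Single markers, chosen after their values were seen, stood further apart: Pecam1 was at 133 CPM, 5.78 times the next line, Tie1 at 71.8 CPM, 18.4 times, and Kdr at 38.8 CPM, 4.85 times. Other markers of the list did not: Cdh5 (433 CPM) and Esam (86.3 CPM) were highest in lentiviral SKM replicate 2. Tek (353 CPM) was highest in lentiviral SKM replicate 1. Cldn5 and Emcn were at most 0.0479 and 0.335 CPM in any line. Epas1, which encodes HIF-2α, was at 83.2 CPM, with at least 921 CPM in each of the other 14 lines. The part of these differences in the enzyme values was not tested, and in bulk RNA a smaller share of cells of a type and less RNA per cell cannot be told apart.

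Enzymes and other targets were summarised per line by a score, the median over genes of log2(CPM + 0.5) after centring each gene on its median across lines. The scores describe the lines and carry no test. The mean enzyme score was 0.30 ± 0.49 (SD, n = 5) for the retroviral OSKM lines, −0.14 ± 0.16 for the lentiviral OSKM lines and −0.059 ± 0.21 for the SKM lines. The mean score of the 20 other targets was 0.12 ± 0.25, −0.15 ± 0.13 and 0.17 ± 0.28. Retroviral replicate 3 had an enzyme score of 1.15 and a target score of 0.56, whereas the other 4 clones averaged 0.092 ± 0.12 (SD, n = 4) for enzymes and 0.012 ± 0.041 for targets. Lentiviral SKM replicate 5 had a target score of 0.59, the highest of the 15 lines, with an enzyme score of only 0.07. In that line Vegfa, Ndrg1, Egln3 and Bnip3 were the highest of the 5 SKM lines. The enzyme score minus the target score averaged 0.18 ± 0.24, 0.016 ± 0.15 and −0.23 ± 0.20 in the same order, and the ranges of the groups overlapped. Lentiviral SKM replicate 1 had the lowest enzyme score, −0.43, and the lowest level of all lines for Aldoa, Tpi1, Eno1, Pkm and Ldha.

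**Figure D4:**
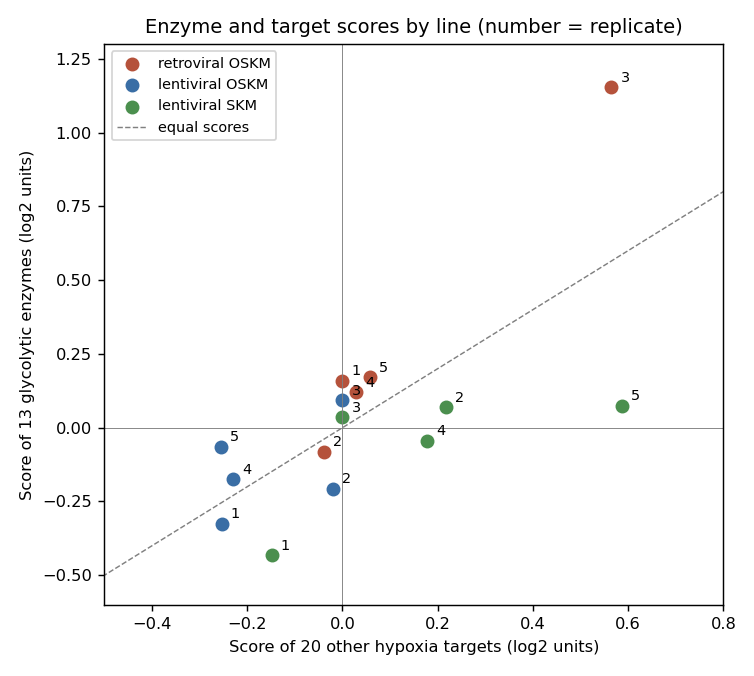
Score of the 13 enzymes (vertical) against the score of the 20 other targets (horizontal) for each of the 15 lines, in log2 units, numbered by replicate; the dashed line marks equal scores. Retroviral OSKM replicate 3 is alone at the top right (1.15 and 0.56), and lentiviral SKM replicate 5 is far right with an enzyme score near 0.

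The level of Gapdh, the glyceraldehyde phosphate dehydrogenase that is often used as a reference gene, is uncertain in these counts. It was at 62.6 to 196 CPM, ranking 18 of the 34 genes per kilobase, and at 58.8 CPM per kb (median) lay far below its neighbours in the pathway, Tpi1 and Pgk1. Of the genes in the tables, 71 have a transcript with a stretch of at least 200 bases at 95% identity or more to that of Gapdh, 70 of them pseudogenes, and together these held 323 to 2637 CPM. Gapdh itself held 5.26% to 7.76% of the joint counts of retroviral OSKM lines, 7.50% to 15.9% of those of lentiviral OSKM lines and 14.3% to 17.3% of those of SKM lines. The division between gene and copies thus differed between groups, and the retroviral lines overlapped lentiviral OSKM lines but no SKM line. The joint level was 1557 ± 727 CPM (SD, n = 5) for the clones, with 2833 CPM in replicate 3 and 1038 to 1425 CPM for the others, 810 ± 89.1 for lentiviral OSKM and 649 ± 213 for SKM lines. All clones were above all lentiviral lines by this joint value, which Gapdh alone did not show (log2 fold change 0.23, SE 0.34). The joint value leaves out entries without a unique alignment, so it is not the full level either. Such entries were 4.93% to 7.35% of the libraries of the clones and 3.95% to 4.97% of those of the lentiviral lines. For Eno1, 2 similar genes held 117 to 753 CPM, and Eno1 kept 62.5% to 65.8% of the joint counts in every line, so the order of the lines hardly depended on them. In all, 8 of the 34 genes had at least 1 such similar gene in the tables.

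**Figure D5:**
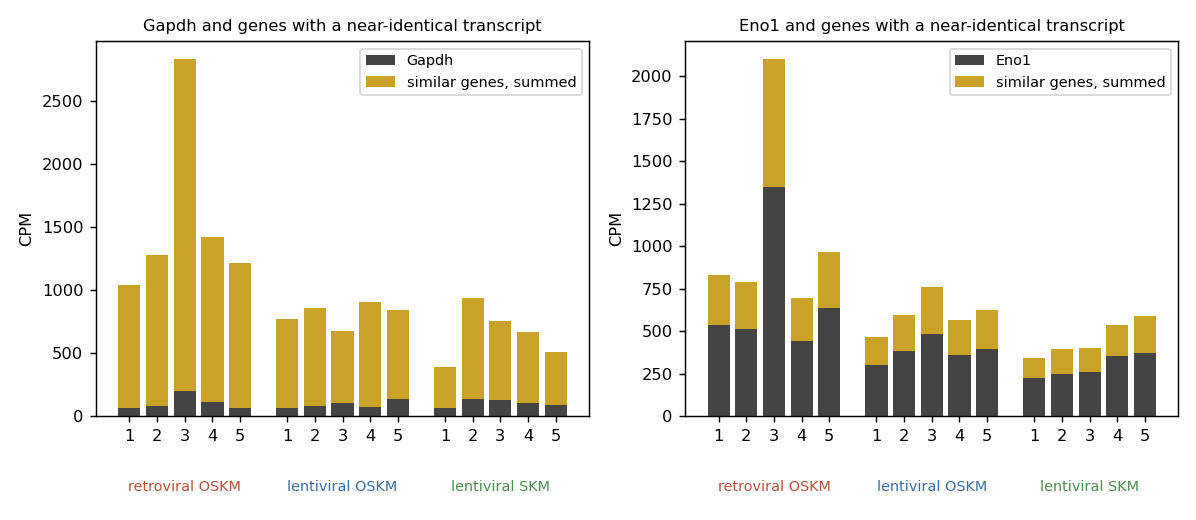
CPM of Gapdh (left) and Eno1 (right) in each line (dark bars) with the summed CPM of genes that have a near-identical transcript stacked on top (gold); axes start at 0 and differ between panels. The gold part is most of the Gapdh bars and a nearly fixed share of the Eno1 bars.

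Genes of the same pathways outside the 34 were taken from 4 further lists of 71 genes, of which 60 were tested in each comparison and 0 passed. The log2 fold change was above 0 for 33 of 60 in the lentiviral comparison (median 0.05) and for 30 of 60 in the retroviral one (median −0.0035). Of 8 other HIF subunits and regulators, 6 were above 0 in the first comparison and 0 of 8 in the second. Retroviral OSKM replicate 3 was the lowest of all 15 lines for Epas1, Arnt2, Vhl, Egln2, Hif1an and Cited2. Cited2 was at 187 CPM in that clone, with a median of 813 CPM over the lines. Epas1 averaged 1212 ± 773 CPM (SD, n = 5) for the clones, 1385 ± 227.2 for lentiviral OSKM and 2032 ± 726 for SKM lines (log2 fold change of SKM over lentiviral OSKM 0.55, SE 0.23, adjusted p = 0.979 by edgeR). Cited2, which competes with HIF for its coactivator, averaged 538 ± 255, 602 ± 279 and 895 ± 80.1 CPM, and Hif1an, an asparagine hydroxylase gene that restrains HIF, 57.1 ± 24.7, 80.3 ± 18.0 and 98.3 ± 34.5 CPM. For these 3 the SKM lines had the highest mean, and the groups overlapped.

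Of 27 other hypoxia targets tested, 16 were above 0 in the first comparison and 13 in the second. The lysyl hydroxylase genes Plod2 and Plod1 and the ubiquitin ligase adaptor gene Wsb1 had log2 fold changes of 0.18 (SE 0.20), 0.23 (SE 0.27) and −0.03 (SE 0.20) for SKM and of 0.05 (SE 0.28), −0.30 (SE 0.36) and −0.03 (SE 0.22) for the retroviral lines. Of 14 other isozymes and lactate carriers, 8 and 9 were above 0. The lactate carrier gene Slc16a1 had 0.09 (SE 0.31) and 0.01 (SE 0.38), the neuronal enolase Eno2 0.13 (SE 0.26) and 0.58 (SE 0.32), and hexokinase 1 (Hk1) 0.13 (SE 0.15) and −0.34 (SE 0.23). Of 11 genes for pyruvate entry into mitochondria, 3 and 8 were above 0. The pyruvate dehydrogenase subunit genes Pdha1, Pdhb and Dld had 0.07 (SE 0.14), −0.06 (SE 0.21) and −0.03 (SE 0.14) for SKM. In the retroviral comparison they had 0.16 (SE 0.18), 0.51 (SE 0.17) and 0.44 (SE 0.19), with adjusted p of 0.727, 0.219 and 0.33 by edgeR.

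The lines carried XEN markers, as the series description has it, and little RNA of pluripotency markers, whatever the labels that call them induced pluripotent. All 10 XEN markers were above 1 CPM in every line. Their sum, which rests largely on Lama1, Lamb1 and Sparc, was 12016 to 56098 CPM among the clones. It was 36374 to 60384 CPM among lentiviral OSKM and 37231 to 59916 CPM among SKM lines. The 8 pluripotency markers summed to 0.324 to 15.5 CPM, and within each group 1 of them, not always the same, was at 0 in all 5 lines. The 10 fibroblast markers summed to 65.1 to 379 CPM among the clones, 101 to 817 among lentiviral OSKM and 85.8 to 444 among SKM lines, highest in lentiviral OSKM replicate 5 and lentiviral SKM replicate 1. With those 2 lines left out of the lentiviral comparison, the median log2 fold change was 0.18 for enzymes and 0.42 for the other targets, and 0 genes passed.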

How the data were processed

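Libraries of polyA RNA from 15 lines were made with Illumina's stranded kit, per the labels. The authors deposited raw counts for each gene in 2 tables. The submitters' processing notes name the build mm10 and the tools HTSeq 0.11.2, SAMtools 1.9, HISAT2 2.1.0, FastQC 0.11.7 and Trimmomatic 0.39. HTSeq's annotation and strand setting are not stated in the sources used here. The 5 summary rows of HTSeq were left out, which leaves the 68.8% to 77.0% of a library's entries that lie in genes.

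Symbols and positions came from GENCODE M21 (GRCm38), and 1 gene, Ero1a, was matched through a RefSeq synonym. Libraries held 34916933 to 75376275 counts in genes, and a count of 0, which allows up to 3 counts, limits a level to 0.0386 to 0.0851 CPM (counting error only). The closest pair of libraries in a group differed by far more than sampling noise (chi-square per degree of freedom at least 179.7), so each was counted as its own sample.

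Both comparisons used edgeR 4.0.16 in R 4.3.3 on the counts of their own 10 libraries: TMM scaling, filterByExpr at 10 counts, quasi-likelihood F tests, and p-values adjusted by Benjamini-Hochberg over all genes tested, at 0.05. All 34 genes are named, and of the other pathway lists, where 0 genes passed, the 3 with the highest mean CPM per list. Members and lists were chosen with earlier results of these data known. Group differences in scores carry no test. Alternatives were DESeq2 1.42.0, limma 3.58.1 with voom, other scalings and filters, a joint fit, a replicate block and each line left out. In 2 simulated runs per comparison, 200 genes drawn at random from all genes tested were altered. Counts were drawn separately for each gene, so shifts shared by many genes of a line were not simulated. There edgeR recovered 16.9% and 26.6% of the 2-fold changes for the lentiviral lines (15517 and 15495 genes). For the retroviral against lentiviral OSKM lines it recovered 13.6% and 16.7% (15156 and 15168 genes). Near-identical transcripts were searched with BLAST+ 2.17.0. Levels per kilobase used the merged exons of basic GENCODE transcripts.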

Additional observations from a re-analysis of the deposited data

Results flagged for a closer look

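In each group of 5 lines, a line was marked when its gap to the nearest other line exceeded 0.71 of the range of the group (Dixon's critical value). This marked 13 of 111 groups of values. For normally distributed values chance marks about 5 in 100. The CPM values were checked without a log, so that share need not hold for them. Retroviral OSKM replicate 3 accounted for 7 of them: Aldoa at 2534 CPM (next line 1024), Pgk1 at 2275 CPM (1095), Eno1 at 1348 CPM (634), Ldha at 2202 CPM (1001), Pdk1 at 101 CPM (42.0), the enzyme score of 1.15 and the target score of 0.56. Genes of 1 pathway vary together, so these are not 7 separate events.

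Among the other clones, Pfkp, the platelet-type phosphofructokinase gene, was at 42.6 CPM in retroviral OSKM replicate 1 with at most 5.99 CPM in the other 4, and Ndrg1 was at 417 CPM in replicate 5 (next 219). Among the lentiviral OSKM lines, Pkm was at 1732 CPM in replicate 4 (next 1493) and Pdk1 at 43.1 CPM in replicate 3 (next 25.5). Among the lentiviral SKM lines, Hk2 was at 293 CPM in replicate 2 (next 239), and the enzyme score of replicate 1 was −0.43, below the next lowest of −0.044.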

How the results depend on the processing

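With edgeR, 0 of the 34 genes passed in either comparison under any scaling, filter or set of lines tried. DESeq2 called 44 genes, 1 of them a member, in the lentiviral comparison, and 623 genes, 3 of them members, in the retroviral one. In the retroviral comparison the count of 39 genes called became 63 with limma voom, 24 with no low-count filter, 155 with all 15 libraries in 1 fit, and 15 to 101 with single lines left out. It was 15 without lentiviral OSKM replicate 1 or retroviral replicate 4, 17 without lentiviral OSKM replicate 2, 21 without lentiviral OSKM replicate 4 or retroviral replicate 2, 23 without retroviral replicate 1 and 101 without retroviral replicate 5. In the lentiviral comparison it stayed at 0 with every line left out in turn.

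Fitting the replicate number as a replicate block gave 0 calls between the lentiviral groups and 3 between retroviral and lentiviral OSKM lines. Deviations of same-numbered lines from their group means had correlations of −0.137 to 0.301 and −0.18 to 0.028. Such correlations cannot show whether same-numbered lines share a preparation or handling.

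The sign of the log2 fold change turned for 11 of 34 genes between the lentiviral groups and for 7 of 33 between the OSKM groups, at 45 of 611 and 19 of 561 values. In the lentiviral comparison Tpi1 was at −0.0286 with voom, −0.0032 with a minimum mean of 1 CPM and −0.0283 with the block. Slc2a3 was at 0.0294 with voom, 0.0345 with the block and 0.0479 without the 2 lines of high fibroblast markers. Without those lines Pfkfb3 was at −0.15 and Pfkfb4 at 0.078. Egln1 was at −0.0579 with voom and −0.0575 with the block, and P4ha2 at −0.0037 with voom. With single lines left out, the ranges were −0.69 to 0.84 for Pfkp, −0.18 to 0.84 for Aldoc, −0.093 to 0.13 for Tpi1, −0.016 to 0.19 for Pgk1, −0.28 to 0.31 for Slc2a3, −0.33 to 0.0039 for Pfkfb4, −0.13 to 0.20 for Egln1, −0.11 to 0.20 for P4ha2, −0.16 to 0.039 for Ero1a and −0.089 to 0.14 for Kdm3a.

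In the retroviral comparison Pfkp was at −1.11 with voom and −1.48 with the block, Adm at −0.0093 with the block, and P4ha2 at −0.14 with voom, −0.0074 with no filter and −0.15 with the block. With single lines left out, the ranges were −0.17 to 0.23 for Pfkl, −2.10 to 0.89 for Pfkp, −0.013 to 1.37 for Aldoc, −0.16 to 0.43 for Gapdh, −0.036 to 0.32 for Pfkfb3, −0.086 to 0.54 for Adm and −0.44 to 0.17 for P4ha2. The cause of these changes was not tested. The median of the enzymes stayed above 0 in every fit, at 0.065 to 0.21 between the lentiviral groups and 0.32 to 0.60 between the OSKM groups with single lines left out. The median of the other targets ranged from 0.26 to 0.50 and from 0.21 to 0.46. Mean scores of the SKM lines ranged from −0.093 to 0.034 for enzymes and 0.062 to 0.25 for targets, and the former changed sign without replicate 1 and the latter was lowest without replicate 5. For the clones the ranges were 0.092 to 0.40 and 0.012 to 0.16, both lowest without replicate 3, and for lentiviral OSKM lines −0.19 to −0.088 and −0.19 to −0.13. The enzyme score minus the target score ranged from 0.08 to 0.24 for the clones, −0.028 to 0.067 for lentiviral OSKM and −0.29 to −0.15 for SKM lines.

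The main limits are 5 lines a group, with intervals of about 0.634 and 0.719 log2 units to either side of a typical gene's fold change. The retroviral libraries were also shallower, and the vector, the cloning and the library series divide the lines alike. RNA levels do not show oxygen supply, HIF protein or flux through glycolysis, none of which was measured here.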

Other observations

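Vldlr and Hif3a, from the further hypoxia lists, were chosen after their values were seen, and neither passed edgeR's quasi-likelihood test. Of the 60 genes tested from these lists, 0 had separate groups in the lentiviral comparison, beside 0.717% of all genes. In the retroviral comparison 1 of 60, Hif3a, had separate groups, beside 4.01% of all genes. Vldlr, a lipoprotein receptor gene induced by hypoxia, was at 51.1, 74.1, 75.4, 79.6 and 27.3 CPM in the lentiviral OSKM lines (replicates 1 to 5) and at 9.60, 18.9, 17.4, 7.82 and 31.1 CPM in lentiviral SKM replicates 1 to 5. SKM lines were lower except for an overlap between lentiviral OSKM replicate 5 and SKM replicate 5. Its log2 fold change was −1.86 (SE 0.40, adjusted p = 0.758 by edgeR), opposite in sign to that of Ndrg1, which had the same adjusted p.

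Hif3a, which encodes another HIF α subunit, was at 0.297, 0.671, 0.742, 0.681 and 0.72 CPM in the retroviral clones 1 to 5 and at 1.91, 0.914, 3.58, 1.54 and 1.05 CPM in lentiviral OSKM replicates 1 to 5. All clones were below all lentiviral OSKM lines, as were 2.24% of the genes tested. The log2 fold change was −1.51 (SE 0.47, adjusted p = 0.198 by edgeR), at levels near 1 CPM in the shallower libraries.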
